A study of Mus musculus with 24 samples.

Results

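The mitosis genes described here are 44 genes whose products act in cell division, and they were followed across sorted supporting cells of the fetal mouse gonad. They were chosen by name, from a list that covers entry into mitosis, the spindle, the checkpoint, anaphase and cytokinesis, and all 44 were among the 32040 gene symbols of the deposited tables. The rule that names them uses no measured value, but the list was drawn up with earlier results of these data known. All 44 also passed the filter on low counts, which kept 16190 genes for testing.

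The study sorted the supporting cells of each sex from fetal gonads, pre-granulosa cells where the embryo was XX and Sertoli cells where it was XY, at 4 stages named by days of embryonic age, the earliest E11.5, followed by E12.5 and E13.5, and the latest E15.5. XX cells were female cells of the Tg(Enh8-mCherry) line, and XY cells were male cells of the SOX9-IRES-GFP line. Both carried a fluorescent reporter, no other treatment or allele is named, and the 8 groups had 3 libraries each. Sex, mouse line and fluorophore changed together, so their parts in any XX minus XY difference cannot be told apart. The labels do not say whether replicates came from separate litters or how many gonads went into each, so p-values measure the spread between these libraries, which may be technical. In these bulk samples, fewer cells in division and less RNA of a gene per cell cannot be told apart.

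In a dividing cell the RNA of most mitosis genes is at its highest level in the G2 phase and in mitosis. Many of the proteins are then destroyed at the end of division. Cyclin-dependent kinase 1 (Cdk1) with its cyclins starts mitosis, a bipolar spindle captures the chromosomes through their kinetochores, a checkpoint holds the cell until all are attached, and the anaphase-promoting complex then releases the sister chromatids. In the fetal gonad, Sertoli cells are known to go on dividing while the testis cords grow, whereas pre-granulosa cells are known to leave the cell cycle early.

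Total counts per library lay between 11275251 and 37256881, and the lowest count of any mitosis gene in any library was 43, for Ttk in XX E15.5 replicate 1. The labelled cell types matched their markers from E12.5 on: 8 Sertoli markers summed to between 6268 and 8238 TPM in XY libraries of E12.5 to E15.5 against at most 81.6 TPM in XX libraries of those stages, and 8 pre-granulosa markers to between 640.4 and 1217 TPM in XX against at most 12.45 TPM in XY. At E11.5 the separation was smaller, with Sertoli markers at 724.7 to 1225 TPM in XY and 80.5 to 163 TPM in XX. The library XX E11.5 replicate 2 stood apart within its group. It had the highest pre-granulosa marker sum, 711 TPM against 375 and 293 TPM in replicates 1 and 3, and the lowest sum of 10 erythroid markers, 10943 TPM against 36151 and 87343 TPM. It was also the lowest of its group for 42 of the 44 mitosis genes, the exceptions being Bub3 and Pttg1. In XY, E11.5 replicate 3 was the highest of its group for all 44 genes, E12.5 replicate 1 was the lowest for all 44, and E13.5 replicate 1 was the highest for 42 (not Bub3 and Pttg1).

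Promoter sequences were looked at because the genes moved together. RefSeq sequences (build GRCm38.p6) from 250 bases before to 50 bases after the start were matched for 37 of the 44 genes, by symbol, and Aurkb, Ccna2, Cdc25c, Incenp, Kif20a, Spc24 and Tpx2 were unmatched. They were searched for a pair of motifs. TTTGAA, which reads as TTCAAA on the other strand, is the cell cycle gene homology region, known as a binding element of the complexes that repress and then activate G2 and mitosis genes, and CCAAT, which reads as ATTGG on the other strand, is the element of the factor NF-Y. A gene was counted when any of its listed starts held the motif on either strand. TTTGAA was present in 26 of 37 mitosis genes (70.3%) against 20.2% of the 27025 genes with a promoter in the table, CCAAT in 27 (73.0%) against 41.1%, and both in 22 (59.5%) against 8.97%. The 2 motifs overlapped in 1 promoter of the 37 genes. Among other cell division genes, TTTGAA was found in 13 of 22 other spindle and cytokinesis genes (59.1%), 5 of 7 condensin genes (71.4%), 3 of 16 subunits and regulators of the anaphase-promoting complex (18.8%) and 3 of 18 DNA replication genes (16.7%). CCAAT was also common in related lists: 85.7% for mitotic entry control, 72.2% for DNA replication, 66.7% for other kinetochore genes, and 63.6% for spindle and for cohesin genes. It was at 55.6% for transcriptional regulators, 42.9% for condensin and 37.5% for the anaphase-promoting complex. Both motifs were held by 45.5% of the spindle and 42.9% of the condensin genes, and by 6.25% to 33.3% in the other lists. A match is a description of these letters and not a test of binding.

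The 120 bases before the start are shown for 10 genes, in the direction of transcription, with both motifs, on either strand, in capitals. The first 6 hold TTTGAA within that stretch and were lower in XX at E15.5. They stand for entry (Cdk1), anaphase (Cdc20 and Ube2c), chromosome structure (Top2a), the spindle (Kif11) and the chromosome surface (Mki67).
Cdk1 at chr10:69352913-69353032 (minus strand): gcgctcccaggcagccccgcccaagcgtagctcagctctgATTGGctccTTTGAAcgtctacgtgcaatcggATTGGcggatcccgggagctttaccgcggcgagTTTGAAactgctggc
Cdc20 at chr4:118437344-118437463 (minus strand): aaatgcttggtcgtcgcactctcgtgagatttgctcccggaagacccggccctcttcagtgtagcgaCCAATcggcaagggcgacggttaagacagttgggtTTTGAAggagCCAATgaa
Top2a at chr11:99024190-99024309 (minus strand): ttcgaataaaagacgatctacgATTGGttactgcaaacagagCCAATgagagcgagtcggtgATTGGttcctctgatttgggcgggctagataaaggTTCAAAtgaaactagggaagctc
Kif11 at chr19:37376262-37376381 (plus strand): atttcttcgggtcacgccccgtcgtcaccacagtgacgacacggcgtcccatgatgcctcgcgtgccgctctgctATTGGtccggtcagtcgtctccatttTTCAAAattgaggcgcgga
Ube2c at chr2:164769809-164769928 (plus strand): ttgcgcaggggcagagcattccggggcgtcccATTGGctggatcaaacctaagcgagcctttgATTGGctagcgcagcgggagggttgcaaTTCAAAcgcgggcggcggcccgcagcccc
Mki67 at chr7:135716380-135716499 (minus strand): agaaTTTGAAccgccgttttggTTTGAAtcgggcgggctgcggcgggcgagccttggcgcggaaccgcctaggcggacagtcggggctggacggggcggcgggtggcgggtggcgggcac

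The next 4 are the genes whose values departed most from the others in ways described below. Nek2 had the largest difference at E15.5 and holds CCAAT without TTTGAA in the searched window. Bub3 was the only gene that did not pass the test at E15.5, and its window holds both motifs. Cdc25b was higher in XX at E12.5 and E13.5 and holds ATTGG alone, and Pttg1, which was higher in XX at E13.5, holds neither.
Nek2 at chr1:191821353-191821472 (plus strand): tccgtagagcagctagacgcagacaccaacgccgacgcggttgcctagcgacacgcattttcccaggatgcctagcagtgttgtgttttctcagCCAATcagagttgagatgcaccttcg
Bub3 at chr7:131560250-131560369 (plus strand): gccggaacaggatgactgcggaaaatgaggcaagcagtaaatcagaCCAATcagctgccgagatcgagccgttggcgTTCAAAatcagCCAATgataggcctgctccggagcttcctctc
Cdc25b at chr2:131186828-131186947 (plus strand): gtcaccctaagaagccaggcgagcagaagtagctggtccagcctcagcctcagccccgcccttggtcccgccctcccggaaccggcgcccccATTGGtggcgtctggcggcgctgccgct
Pttg1 at chr11:43425982-43426101 (minus strand): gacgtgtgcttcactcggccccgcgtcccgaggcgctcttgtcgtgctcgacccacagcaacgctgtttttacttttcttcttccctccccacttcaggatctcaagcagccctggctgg

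Besides Nek2, Cdc25b and Pttg1, the matched genes without TTTGAA were Ccnb1, Birc5, Bub1, Mad2l1, Cenpe, Nuf2, Kif18a and Nusap1. Each of these 8 was lower in XX than in XY at E12.5 and at E15.5. At E13.5 Bub1, Mad2l1, Cenpe, Nuf2 and Nusap1 were lower in XX, while Ccnb1, Birc5 and Kif18a did not pass the test. Spc25, which holds TTTGAA, did not pass it there either. Whether the motif goes with these values was not tested.

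Summed over the 44 genes, the level per library on the deposited TPM scale (read counts scaled by gene length and by the library total) was lower in XX from E12.5 on than in replicates 1 and 3 of XX E11.5, and in XY it was highest at E15.5. In order of replicate number, the XX sums were 2489, 1074 and 2228 TPM (E11.5), 1282, 1197 and 1122 (E12.5), 1019, 1078 and 1146 (E13.5), and 1035, 1035 and 1071 (E15.5). The XY sums were 2108, 2458 and 3407 TPM (E11.5), 2134, 3674 and 3521 (E12.5), 2240.1, 1729.7 and 1546 (E13.5), and 4877, 4799 and 4807 (E15.5). The sexes overlapped at E11.5 and not at the later stages. The ratio of the XY mean to the XX mean was 1.38 (E11.5), 2.59 (E12.5), 1.70 (E13.5) and 4.61 (E15.5). The spread within a group was widest in XX E11.5, where the highest library was 2.32-fold the lowest, and narrowest in XY E15.5, at 1.02-fold. The XX mean at E11.5 was 1.61-fold that at E12.5, and 1.97-fold without XX E11.5 replicate 2.

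**Figure D1:**
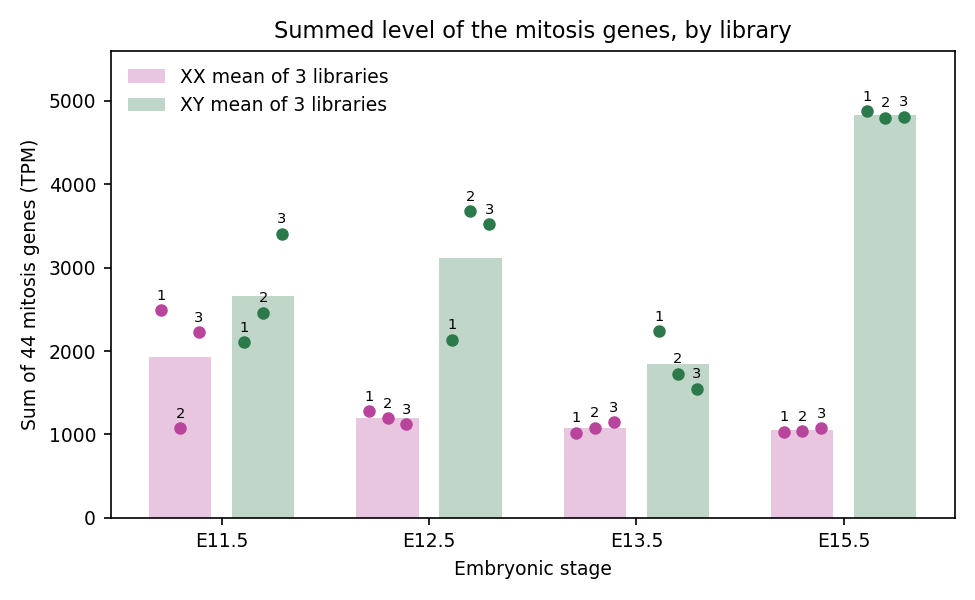
Sum of the 44 mitosis genes in TPM (y axis, from 0) for each library (points, numbered by replicate) with the mean of 3 libraries (bars), by embryonic stage and sex. The 3 XY E15.5 libraries sit at 4799 to 4877 TPM, above all others, and XX E11.5 replicate 2, at 1074 TPM, sits apart from the other 2 of its group.

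At the level of single genes, the median distance between the sexes was small at E11.5 and largest at E15.5, and smaller at E13.5 than at E12.5. A direct test of the change from E12.5 to E13.5, given below, called 5 of the 44 genes, against 25.2% of all genes. All calls below are from edgeR's quasi-likelihood test with Benjamini-Hochberg adjustment over all genes, at an adjusted p under 0.05, and every log2 difference is a fitted difference of counts. At E11.5, 11 of the 44 genes were lower in XX, none was higher, and 33 did not pass the test, against 42.0% of all genes tested that were called (20.6% lower in XX). The 11 were Cdk1, Cdc25c, Bub1, Bub3, Ube2c, Cenpe, Aurka, Kif2c, Kif4, Kif23 and Racgap1. The median over the 44 was -0.56 and over all genes tested 0.02. The XX and XY libraries did not overlap for 12 genes, 11 lower and 1 higher (Pttg1), against 39.9% of all genes. The count was decided by single libraries: it was 2 without XY E11.5 replicate 3, 6 without XY E11.5 replicate 2, 7 without XX E11.5 replicate 2 and 21 without XX E11.5 replicate 1. When only the E11.5 libraries were fitted, edgeR called 0 of the 44, with 7 at an unadjusted p under 0.05. Markers of other cells moved with sex at E11.5: 10 immune markers summed to 221 to 599 TPM in XX, where all 10 were at 1 TPM or more, and to 0.59 to 3.68 TPM in XY, where 1 of 10 was at 0, and 10 erythroid markers summed to 10943 to 87343 TPM in XX against 45.3 to 108 TPM in XY. Their part in the result was not tested.

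At E12.5, 43 of the 44 genes were lower in XX and 1, Cdc25b, was higher, against 62.1% of all genes called (31.5% lower), and the libraries of the sexes did not overlap for any of the 44, against 68.8% of all genes. The median was -1.74, against -0.01 over all genes tested. At E13.5, 37 were lower and 3 were higher (Cdc25b, Bub3 and Pttg1), against 66.1% of all genes called (33.3% lower and 32.8% higher), with a median of -1.12 against 0.01 over all genes. The libraries of the sexes did not overlap for 40 genes there, against 76.8% of all genes. The 4 that did not pass the test at E13.5 were Ccnb1 (log2 difference -0.45, SE 0.32, edgeR adjusted p 0.228), Birc5 (log2 difference -0.27, SE 0.26, edgeR adjusted p 0.372), Spc25 (log2 difference -0.56, SE 0.28, edgeR adjusted p 0.089) and Kif18a (log2 difference -0.51, SE 0.33, edgeR adjusted p 0.172). Without XX E11.5 replicate 2 or XX E13.5 replicate 3, Spc25 was called lower at E13.5, at log2 differences of -0.55 and -0.80.

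Markers of other cells moved with sex at these 2 stages as well. Over E12.5 and E13.5, the 10 erythroid markers summed to 1926 to 5469 TPM in XX and 49.98 to 102 TPM in XY. The 10 immune markers summed to 69.2 to 96.3 TPM in XX and 0.4 to 1.34 TPM in XY, where 7 (E12.5) and 4 (E13.5) of them were at 0 in every library of the stage. The 8 interstitial markers summed to 127 to 241 TPM in XX and 15.54 to 26.0 TPM in XY. The 10 meiosis markers summed to 55.2 to 114.8 TPM in XX and 6.87 to 12.7 TPM in XY. Rec8 alone had XX means of 94.9 TPM (E12.5) and 51.2 TPM (E13.5). The 8 steroidogenic markers summed to 164.6 to 174.9 TPM in XX E13.5 and 70.97 to 74.3 TPM in XY E13.5, and the sexes overlapped in them at E12.5. Their part in the differences was not tested.

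At E15.5, 43 of the 44 genes were lower in XX, none was higher, and 1, Bub3, did not pass the test, against 69.4% of all genes called (34.4% lower and 34.9% higher). The libraries did not overlap for 43 genes, against 77.2% of all genes. The median log2 difference was -2.68, against 0.05 over all genes tested, and single genes ranged from -4.34 (Nek2) to -0.12 (Bub3). By role, the median was -3.22 for the 3 centrosome and spindle kinases, -3.09 for the 7 spindle motors and microtubule-binding proteins, -3.03 for the 7 midzone and cytokinesis genes, -2.73 for the 4 passenger complex genes, -2.56 for the 6 genes of the Cdk1 group, -2.52 for Top2a and Mki67, -2.27 both for the 5 checkpoint genes and for the 3 anaphase genes, and -2.23 for the 7 centromere and kinetochore genes. In 37 of the 44 genes, the 3 XY E15.5 libraries lay above all 21 other libraries, against 8.02% of all genes. The 7 exceptions were Ccnb1, Cdc25b, Bub1, Bub3, Cdc20, Ube2c and Kif20a.

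Other cells' markers differed at E15.5 too. Of 10 germ cell markers, 9 were at 1 TPM or more in all XY E15.5 libraries, where they summed to 59.4, 110.3 and 85.6 TPM in replicates 1 to 3, and 4 were in all XX E15.5 libraries, where they summed to 42.1 to 57.1 TPM. In XY E13.5, germ cell markers summed to 7.74 to 14.0 TPM, with Nanos2 at 0. Meiosis markers (10 genes) summed to 199.7 to 289.5 TPM in XX E15.5, all 10 at 1 TPM or more, and to 10.9 to 19.4 TPM in XY E15.5. Erythroid markers summed to 747 to 997 TPM in XX E15.5 and 370.01 to 587 TPM in XY E15.5, and immune markers to 52.0 to 66.4 TPM and 0.92 to 1.72 TPM. The 8 interstitial markers summed to 197 to 292 TPM in XX E15.5 and 46.5 to 65.05 TPM in XY E15.5. For 8 steroidogenic markers the sums were 240 to 263 TPM and 52.3 to 92.25 TPM. The part of these cells in the E15.5 difference was not tested.

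**Figure D2:**
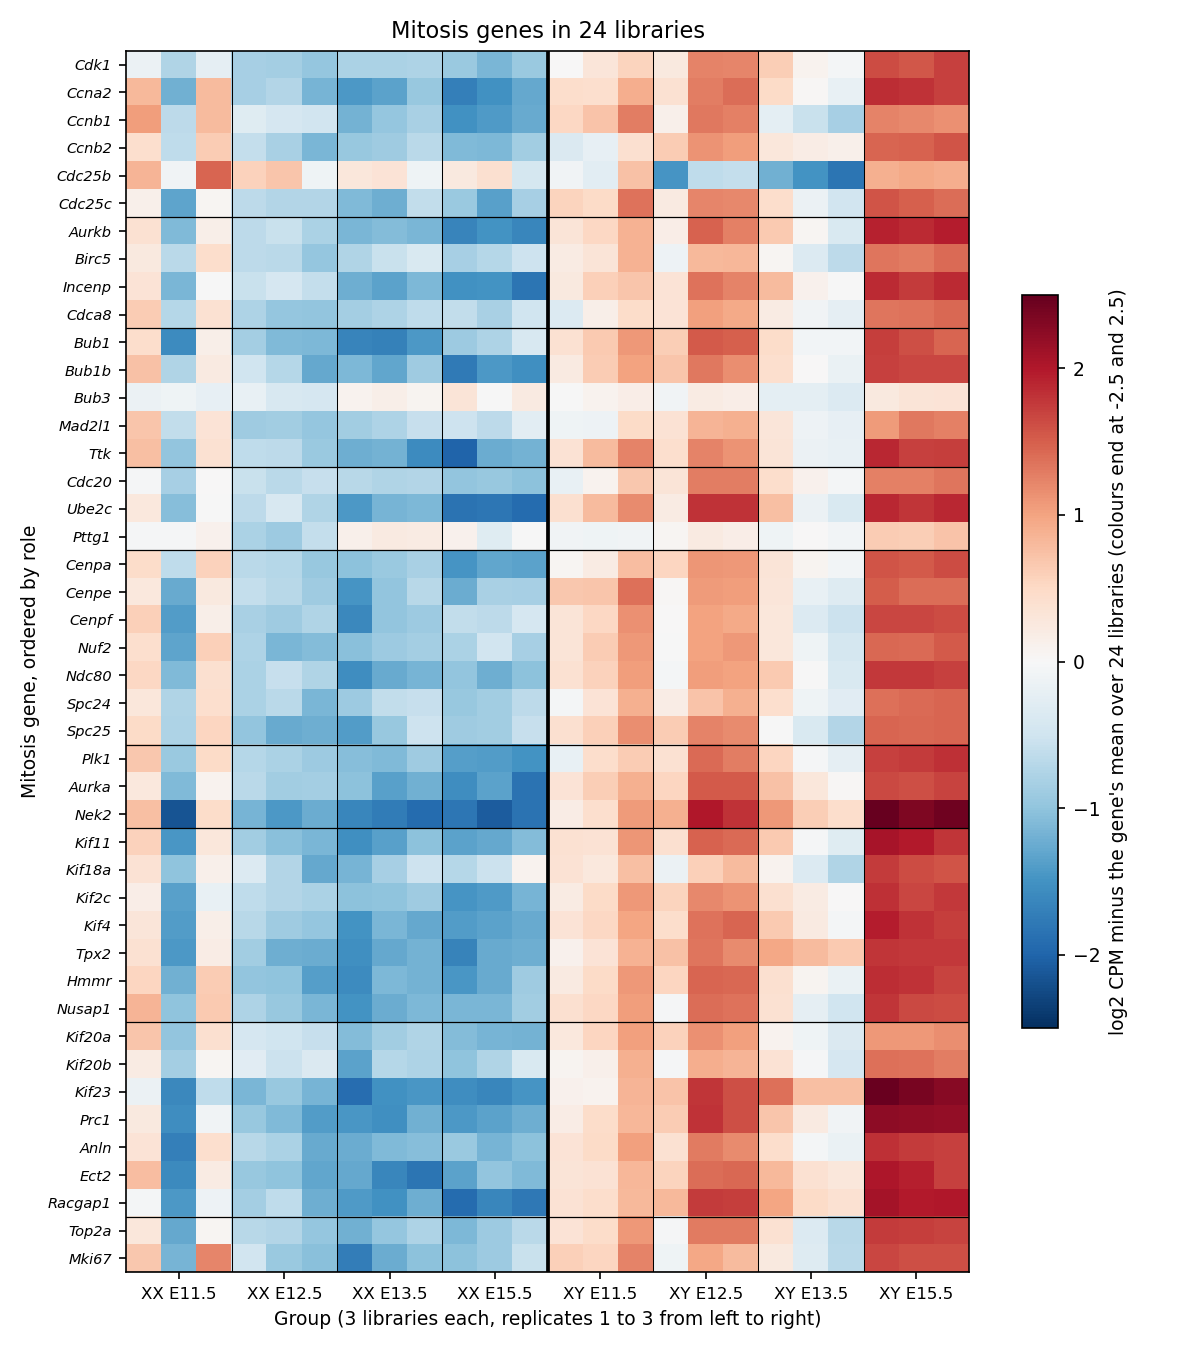
Log2 CPM (counts scaled by library size) of the 44 mitosis genes (rows, ordered by role, black lines between roles) in 24 libraries (columns, 3 per group), each gene centred on its mean over the 24 libraries, with colours ending at -2.5 and 2.5. The XY E15.5 columns are the highest for most rows, XX E11.5 replicate 2 is paler or lower than its neighbours, and the rows of Bub3 and Pttg1 vary little.

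**Figure D3:**
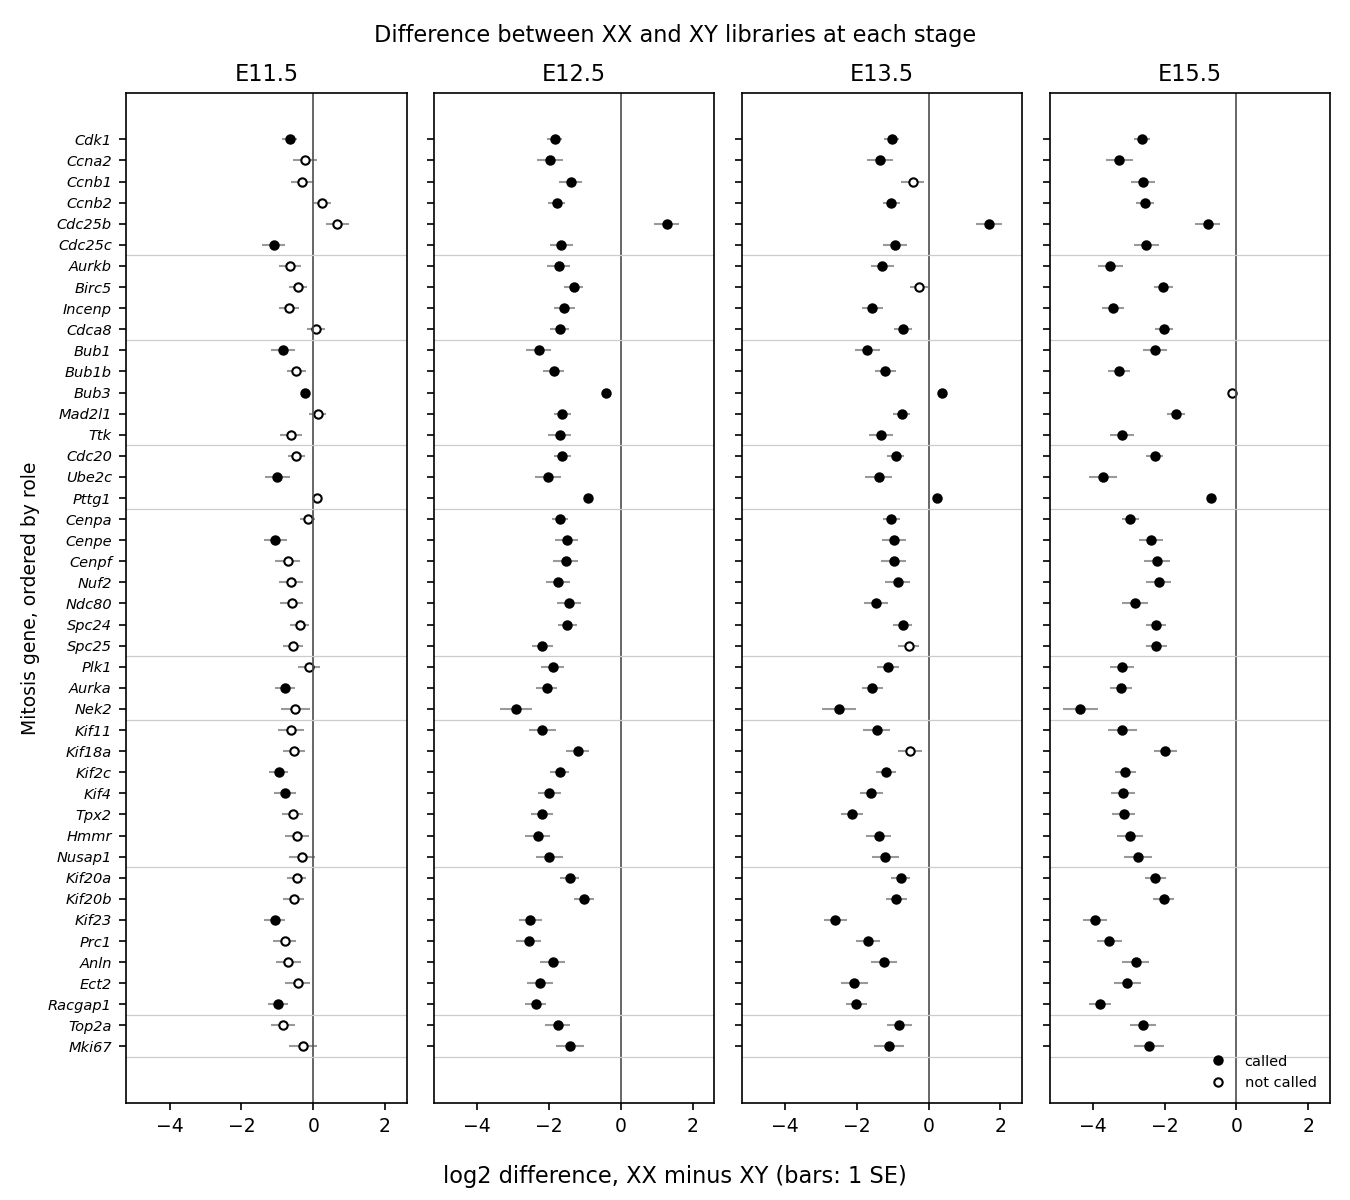
Log2 difference, XX minus XY, of each mitosis gene (rows) at each stage (panels), with bars of 1 SE, filled points for genes called by edgeR and open points for others. Filled points to the left number 11, 43, 37 and 43 from the first stage to the last, and Cdc25b lies to the right at the first 3 stages and to the left at E15.5.

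In the group that triggers mitosis, Cdk1 is the kinase, cyclins A2, B1 and B2 (Ccna2, Ccnb1 and Ccnb2) switch it on, and the phosphatases Cdc25b and Cdc25c remove its inhibitory phosphates. Values here and in the next paragraphs are CPM on TMM-scaled library sizes, in order of replicate number. For Cdk1, XX libraries had 63.7, 42.1 and 60.3 CPM (E11.5), 39.7, 39.2 and 35.9 (E12.5), 40.8, 40.9 and 41.2 (E13.5), and 37.2, 31.9 and 37.2 (E15.5). The XY libraries had 71.1, 87.2 and 103 CPM (E11.5), 83.0, 166 and 164 (E12.5), 108, 75.3 and 68.5 (E13.5), and 219, 207 and 232 (E15.5). From E12.5 on the XX libraries lay between 31.9 and 41.2 CPM, all XX libraries lay below all XY libraries at each stage, and XY E15.5 was the highest group. The E15.5 means were 35.5 ± 3.06 and 219 ± 12.8 CPM in XX and XY (mean ± SD, n = 3 each), a 6.18-fold difference (log2 difference -2.63, SE 0.22, edgeR adjusted p 1.46e-09).

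Ccna2, which acts from S phase into early mitosis, had the largest difference of this group at E15.5. Its XX values were 75.1, 18.8 and 74.9 CPM (E11.5), 24.2, 26.0 and 19.3 (E12.5), 16.0, 17.1 and 22.3 (E13.5), and 13.1, 15.1 and 17.8 (E15.5). Its XY values were 58.6, 57.2 and 81.1 CPM (E11.5), 56.4, 104 and 113 (E12.5), 59.9, 44.2 and 38.1 (E13.5), and 154, 149.8 and 140.1 (E15.5). Replicates 1 and 3 of XX E11.5 were in the range of XY and replicate 2 was at the level of later XX libraries, and from E12.5 on the sexes did not overlap. At E15.5 the fold was 9.65 (log2 difference -3.26, SE 0.38, edgeR adjusted p 1.82e-07).

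Cdc25b had the smallest difference of the group and its difference changed sign between stages. In XX it was at 10.3, 5.37 and 15.7 CPM (E11.5), 8.51, 9.27 and 5.27 (E12.5), 6.96, 7.18 and 5.29 (E13.5), and 6.77, 7.53 and 4.23 (E15.5). In XY it was at 5.38, 4.72 and 9.43 CPM (E11.5), 2.05, 3.67 and 3.79 (E12.5), 2.49, 2.03 and 1.61 (E13.5), and 10.5, 10.9 and 10.6 (E15.5). XX was above XY without overlap at E12.5 and E13.5 and below it without overlap at E15.5, with XX between 4.23 and 9.27 CPM from E12.5 on and XY between 1.61 CPM and 10.9 CPM. The XX minus XY log2 difference was 0.68 (SE 0.33, edgeR adjusted p 0.106) at E11.5, 1.27 (SE 0.35, edgeR adjusted p 0.00316) at E12.5 and 1.68 (SE 0.36, edgeR adjusted p 0.000373) at E13.5. At E15.5 it was -0.80 (SE 0.34, edgeR adjusted p 0.0411), close to the threshold, and this call was lost under 6 alternatives of the processing and without any 1 of 11 libraries (adjusted p 0.05088 to 0.1833 over those 17 fits). The E11.5 difference was called when XX E11.5 replicate 2 was left out, or XY E11.5 replicate 3, with log2 differences of 0.99 and 1.05.

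Among the chromosomal passenger complex, which corrects wrong attachments and directs cytokinesis, Aurkb is the kinase and Cdca8 (borealin), Incenp and Birc5 (survivin) place it. Aurkb had 42.0, 14.996 and 35.7 CPM (E11.5), 20.5, 21.7 and 18.6 (E12.5), 14.4, 15.2 and 14.5 (E13.5), and 10.2, 11.4 and 10.4 (E15.5) in XX. It had 40.3, 45.7 and 58.7 CPM (E11.5), 36.1, 88.7 and 76.9 (E12.5), 50.5, 33.3 and 24.6 (E13.5), and 122, 117 and 125 (E15.5) in XY. At E11.5 the sexes overlapped and afterwards they did not, and the XX libraries lay lower at E13.5 than at E12.5, and lower again at E15.5, without overlap between these stages. The E15.5 fold was 11.4 (log2 difference -3.50, SE 0.34, edgeR adjusted p 1.83e-08). Incenp differed by 10.7-fold there (log2 difference -3.43, SE 0.31, edgeR adjusted p 5.82e-09).

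Cdca8, with the smallest difference of the complex, had XX values of 111, 43.1 and 92.2 CPM (E11.5), 41.7, 36.3 and 36.0 (E12.5), 39.7, 41.5 and 46.1 (E13.5), and 46.3, 40.4 and 50.1 (E15.5). Its values in XY were 55.9, 79.2 and 97.8 CPM (E11.5), 90.1, 145 and 137 (E12.5), 81.8, 66.7 and 60.7 (E13.5), and 180.4, 182 and 192 (E15.5). XX E11.5 replicate 1 was above the XY libraries of that stage and replicate 3 within their range, and XX stayed between 36.0 and 50.1 CPM from E12.5 on. XY was 4.06-fold higher at E15.5 (log2 difference -2.02, SE 0.26, edgeR adjusted p 6.18e-07), and Birc5 4.10-fold (log2 difference -2.03, SE 0.27, edgeR adjusted p 9.61e-07).

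The spindle checkpoint delays anaphase while kinetochores are unattached, with Ttk and Bub1 as kinases and Mad2l1, Bub1b and Bub3 as parts of the inhibitory complex. Bub1b had 79.9, 28.8 and 56.1 CPM (E11.5), 34.2, 29.2 and 19.9 (E12.5), 22.1, 19.6 and 25.8 (E13.5), and 14.1, 17.7 and 16.6 (E15.5) in XX. Its XY counterparts were 55.9, 75.1 and 96.4 CPM (E11.5), 78.2, 119.8 and 107 (E12.5), 64.5, 48.2 and 42.6 (E13.5), and 158, 154 and 153 (E15.5). The sexes overlapped at E11.5 only. XY was 9.59-fold higher at E15.5 (log2 difference -3.26, SE 0.30, edgeR adjusted p 7.85e-09), and Mad2l1, with a smaller difference, was 3.21-fold higher (log2 difference -1.68, SE 0.24, edgeR adjusted p 2.90e-06).

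Bub3 had the smallest E15.5 difference of the 44 genes. XX libraries gave 236, 242 and 225 CPM (E11.5), 228, 197 and 194 (E12.5), 276, 287 and 271 (E13.5), and 324, 259 and 304 (E15.5). XY libraries gave 258, 276 and 292 CPM (E11.5), 243, 300.1 and 290.5 (E12.5), 219.6, 220.5 and 206 (E13.5), and 309, 325 and 329 (E15.5). XX was below XY at E11.5 and E12.5 and above XY at E13.5, each without overlap, and the groups overlapped at E15.5. On the log2 scale XX minus XY was -0.43 (SE 0.09, edgeR adjusted p 0.000383) at E12.5 and 0.37 (SE 0.09, edgeR adjusted p 0.00136) at E13.5. At E15.5 it was -0.12 (SE 0.09, edgeR adjusted p 0.264), and without XX E15.5 replicate 2 it was 0.044, on the other side of 0. On the TPM scale, limma did not call the E12.5 difference (-0.17, adjusted p 0.1119 at a pseudocount of 1).

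Of the anaphase genes, Cdc20 activates the anaphase-promoting complex, Ube2c is the ubiquitin-conjugating enzyme that works with it, and Pttg1 (securin) is the inhibitor of separase that the complex destroys. Ube2c was at 48.4, 19.1 and 40.1 CPM (E11.5), 25.5, 30.5 and 23.9 (E12.5), 14.8, 17.9 and 18.4 (E13.5), and 11.2, 11.46 and 10.6 (E15.5) in XX. In XY it was at 53.2, 69.8 and 90.9 CPM (E11.5), 46.1, 139.9 and 141 (E12.5), 68.0, 36.4 and 30.8 (E13.5), and 148, 138 and 148 (E15.5). The sexes did not overlap at any stage, and the mean in XX was lower at each later stage, while XY E12.5 replicates 2 and 3 were already at the E15.5 level. The fold at E15.5 was 13.1 (log2 difference -3.71, SE 0.40, edgeR adjusted p 6.26e-08), against 4.83 for Cdc20 (log2 difference -2.27, SE 0.24, edgeR adjusted p 5.53e-08).

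Pttg1 changed order between the sexes from stage to stage. XX libraries held 78.9, 79.6 and 87.6 CPM (E11.5), 46.5, 42.9 and 53.5 (E12.5), 87.9, 94.2 and 93.6 (E13.5), and 86.9, 65.4 and 80.4 (E15.5). XY libraries held 75.9, 75.2 and 76.2 CPM (E11.5), 83.5, 94.4 and 90.3 (E12.5), 75.5, 81.5 and 77.3 (E13.5), and 126, 123 and 132 (E15.5). XX dipped at E12.5 and was back at E13.5, so XX was above XY at E11.5 and E13.5 and below it at E12.5 and E15.5, each without overlap. The test called the difference at E12.5 (log2 difference -0.91, SE 0.10, edgeR adjusted p 4.66e-08), at E13.5 (log2 difference 0.24, SE 0.09, edgeR adjusted p 0.0335) and at E15.5 (log2 difference -0.71, SE 0.09, edgeR adjusted p 9.14e-07, 1.64-fold). The E13.5 call was lost without XX E13.5 replicate 3 (0.22, adjusted p 0.08714), without XY E13.5 replicate 3 (0.23, adjusted p 0.07061), and with no filter on low counts or on TPM with limma.

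At the centromere and kinetochore, Cenpa is the histone variant that marks the centromere, Cenpe is a motor, and Nuf2, Ndc80, Spc24 and Spc25 form the complex that grips microtubules. Cenpa had 79.7, 37.6 and 86.3 CPM (E11.5), 36.5, 35.3 and 30.2 (E12.5), 28.6, 30.4 and 33.2 (E13.5), and 20.9, 23.6 and 23.1 (E15.5) in XX. In XY it had 60.3, 67.3 and 99.3 CPM (E11.5), 84.3, 125 and 123 (E12.5), 72.3, 60.9 and 55.8 (E13.5), and 174, 169 and 179 (E15.5). XX E11.5 replicates 1 and 3 lay within the XY range, and no overlap was left from E12.5 on. XY was 7.73-fold higher at E15.5 (log2 difference -2.95, SE 0.24, edgeR adjusted p 1.01e-09).

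Nuf2, with the smallest kinetochore difference at E15.5, had XX values of 23.7, 7.15 and 26.7 CPM (E11.5), 10.4, 8.05 and 8.44 (E12.5), 8.67, 9.46 and 9.82 (E13.5), and 10.2, 12.7 and 9.98 (E15.5). XY values were 22.3, 27.6 and 37.6 CPM (E11.5), 17.6, 35.6 and 37.6 (E12.5), 21.5, 16.5 and 13.1 (E13.5), and 48.4, 47.5 and 51.2 (E15.5). Counts were lower than for Cenpa, and as for Cenpa the sexes overlapped at E11.5 alone. In XX, the E15.5 mean was 1.18-fold the E13.5 mean for Nuf2 and 0.73-fold for Cenpa. Its E15.5 fold was 4.46 (log2 difference -2.16, SE 0.35, edgeR adjusted p 1.60e-05).

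Among the kinases of the centrosome and spindle, Plk1 and Aurka drive centrosome maturation and spindle assembly, and Nek2 separates the centrosomes. Nek2 showed the largest difference of all 44 genes. Its levels in XX were 25.1, 3.35 and 20.4 CPM (E11.5), 6.64, 5.55 and 6.33 (E12.5), 4.81, 4.44 and 3.93 (E13.5), and 4.25, 3.53 and 4.14 (E15.5). Its levels in XY were 16.96, 20.1 and 31.4 CPM (E11.5), 27.5, 60.0 and 52.3 (E12.5), 31.5, 22.9 and 20.3 (E13.5), and 86.1, 75.6 and 80.5 (E15.5). Replicates 1 and 3 of XX E11.5 overlapped XY, replicate 2 was as low as the E15.5 libraries, and at E15.5 each XX library was at or below 4.25 CPM and each XY library at or above 75.6 CPM. The means differed 20.3-fold at E15.5 (log2 difference -4.34, SE 0.49, edgeR adjusted p 1.20e-07) and 7.55-fold at E12.5 (log2 difference -2.91, SE 0.45, edgeR adjusted p 1.08e-05).

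Plk1, with the smallest E15.5 difference of the 3, was at 88.6, 29.3 and 77.5 CPM (E11.5), 33.9, 32.2 and 29.5 (E12.5), 26.7, 26.1 and 30.2 (E13.5), and 21.6, 21.3 and 19.7 (E15.5) in XX. XY had 49.3, 76.1 and 86.3 CPM (E11.5), 72.5, 149.8 and 135 (E12.5), 80.4, 54.5 and 47.5 (E13.5), and 182, 186 and 198 (E15.5). XX E11.5 replicate 1 exceeded all XY libraries of that stage and XX replicate 3 exceeded XY replicates 1 and 2. Later the sexes did not overlap. The E15.5 folds were 9.04 for Plk1 (log2 difference -3.18, SE 0.33, edgeR adjusted p 4.13e-08) and 9.28 for Aurka (log2 difference -3.22, SE 0.30, edgeR adjusted p 9.55e-09).

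Spindle motors and microtubule-binding proteins include Kif11, which pushes the poles apart, Kif18a and Kif2c, which shorten microtubules, the chromosome motor Kif4, and Tpx2, Hmmr and Nusap1, which build and bundle the spindle. Kif11 had 79.5, 19.5 and 65.7 CPM (E11.5), 29.4, 26.0 and 24.4 (E12.5), 18.4, 21.1 and 26.3 (E13.5), and 21.2, 22.2 and 25.3 (E15.5) in XX. The XY values for Kif11 were 70.0, 68.6 and 115 CPM (E11.5), 71.3, 149 and 144 (E12.5), 84.2, 52.4 and 43.4 (E13.5), and 223, 213 and 184 (E15.5). Overlap was seen at E11.5 only, and XY E15.5 was at 184 CPM or more. XY was 9.03-fold higher at E15.5 (log2 difference -3.17, SE 0.39, edgeR adjusted p 4.52e-07).

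Kif18a had the smallest difference of the motors and low counts. XX had 14.97, 5.82 and 12.7 CPM (E11.5), 9.21, 6.96 and 4.79 (E12.5), 5.19, 6.52 and 8.08 (E13.5), and 7.12, 7.996 and 12.3 (E15.5). XY had 14.8, 13.9 and 19.7 CPM (E11.5), 10.5, 17.6 and 20.2 (E12.5), 12.3, 9.20 and 6.90 (E13.5), and 39.1, 35.8 and 34.4 (E15.5). The sexes overlapped at E11.5 and E13.5, were close at E12.5 and were apart at E15.5. There the fold was 3.99 (log2 difference -1.98, SE 0.32, edgeR adjusted p 1.43e-05). At E11.5 the motor Kif2c was among the called genes (log2 difference -0.96, SE 0.26, edgeR adjusted p 0.00559), but not without XY E11.5 replicate 3 (-0.66, adjusted p 0.05303).

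Midzone and cytokinesis genes act after the chromatids part: Kif23 and Racgap1 form centralspindlin, Prc1 bundles the midzone, Kif20a and Kif20b are motors there, and Ect2 and Anln set up the contractile ring. Kif23 had 27.1, 9.72 and 19.4 CPM (E11.5), 13.6, 15.6 and 13.4 (E12.5), 7.9998, 10.4 and 10.9 (E13.5), and 10.2, 9.60 and 10.7 (E15.5) in XX. In XY, Kif23 had 32.2, 31.9 and 53.9 CPM (E11.5), 49.0, 103 and 91.0 (E12.5), 77.5, 50.2 and 50.5 (E13.5), and 166, 156 and 145 (E15.5). It was lower in XX without overlap at all 4 stages. The log2 difference was -1.07 (SE 0.30, edgeR adjusted p 0.00643) at E11.5 and -2.52 (SE 0.31, edgeR adjusted p 5.75e-07) at E12.5. It was -2.59 (SE 0.32, edgeR adjusted p 4.97e-07) at E13.5 and -3.93 (SE 0.33, edgeR adjusted p 1.76e-09) at E15.5, where the fold was 15.2. The E11.5 call was lost without XY E11.5 replicate 3 (-0.77, adjusted p 0.05517) and with only the libraries compared (-1.09, adjusted p 0.09541). Its partner Racgap1 differed 13.9-fold at E15.5 (log2 difference -3.79, SE 0.31, edgeR adjusted p 9.99e-10) and Prc1 11.7-fold (log2 difference -3.54, SE 0.35, edgeR adjusted p 2.26e-08).

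Kif20b, at the other end of this group, was at 39.1, 18.8 and 35.3 CPM (E11.5), 27.9, 23.4 and 26.5 (E12.5), 13.48, 20.7 and 20.0 (E13.5), and 16.8, 20.3 and 26.2 (E15.5) in XX. Its XY levels were 35.8, 36.9 and 63.0 CPM (E11.5), 33.5, 63.4 and 61.4 (E12.5), 43.7, 33.2 and 25.3 (E13.5), and 88.2, 87.3 and 83.0 (E15.5). The sexes overlapped at E11.5 only, and the gap at E12.5 and E13.5 was narrow. The E15.5 fold was 4.08 (log2 difference -2.02, SE 0.29, edgeR adjusted p 3.94e-06).

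Top2a, the topoisomerase that untangles and condenses chromosomes, and Mki67, the surface protein that keeps mitotic chromosomes apart and a common label of cycling cells, make up the last group. XX libraries had 189, 63.9 and 159 CPM (E11.5), 95.8, 93.2 and 78.7 (E12.5), 67.2, 79.4 and 90.8 (E13.5), and 70.8, 82.8 and 96.5 (E15.5) of Top2a. XY libraries had 197, 211 and 329 CPM (E11.5), 152, 377 and 378 (E12.5), 200.05, 122 and 95.4 (E13.5), and 521, 508 and 498 (E15.5) of it. The sexes did not overlap at any stage, although at E11.5 the highest XX and lowest XY libraries were close and the test did not call the difference. XY was 6.11-fold higher at E15.5 (log2 difference -2.61, SE 0.36, edgeR adjusted p 2.34e-06).

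Mki67 values in XX were 64.9, 18.4 and 95.7 CPM (E11.5), 29.2, 21.5 and 19.8 (E12.5), 12.4, 17.3 and 20.0 (E13.5), and 20.2, 21.9 and 28.0 (E15.5). Those in XY were 61.5, 59.7 and 96.9 CPM (E11.5), 38.2, 79.7 and 71.3 (E12.5), 48.7, 33.0 and 25.8 (E13.5), and 129.6, 125 and 126 (E15.5). XX E11.5 spanned almost the whole range of the gene in XX and XY before E15.5, and from E12.5 on the sexes did not overlap. Mki67 was 5.43-fold higher in XY at E15.5 (log2 difference -2.43, SE 0.41, edgeR adjusted p 2.68e-05).

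Between neighbouring stages, the falls in XX that passed the test came at the first step when all libraries were fitted together. From E11.5 to E12.5 in XX, 23 of the 44 genes fell, none rose and 21 did not pass the test, against 34.0% of all genes called (17.3% lower), with a median of -0.84 against 0.01 over all genes. Nek2 fell by 1.39 on the log2 scale (SE 0.44, edgeR adjusted p 0.01938), Mki67 fell by 1.34 (SE 0.40, adjusted p 0.014) and Pttg1 fell by 0.78 (SE 0.10, adjusted p 9.21e-06). This count turned on XX E11.5: 40 genes were called without its replicate 2, 8 without replicate 1 and 9 without replicate 3, and 14 without XX E12.5 replicate 3. The E11.5 and E12.5 libraries did not overlap for 6 genes, all lower at E12.5, against 33.4% of all genes (15.3% lower). The Nek2 call was lost without XX E11.5 replicate 1, XX E11.5 replicate 3 or XX E12.5 replicate 2, and the Mki67 call without XX E11.5 replicate 3 or XX E12.5 replicate 3. Both calls were also lost in the 3 limma fits on TPM, at log2 changes of -0.79 to -0.74 (adjusted p 0.1914 to 0.2439) for Nek2 and -0.99 to -0.88 (0.07354 to 0.1057) for Mki67, and with only the libraries compared (adjusted p 0.1788 and 0.1316), a fit that called 2 of the 44 genes. Summed markers of other cells were lower at E12.5 than at E11.5 in XX. Erythroid markers went from 10943 to 87343 TPM at E11.5 to between 2390 and 5469 TPM at E12.5, immune markers from 221 to 599 TPM to between 89.6 and 96.3 TPM, and 8 steroidogenic markers from 204 to 254 TPM to between 66.6 and 92.7 TPM. Their part in the step was not tested.

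From E12.5 to E13.5 in XX, 2 genes rose, Pttg1 (log2 difference 0.95, SE 0.10, edgeR adjusted p 1.16e-06) and Bub3 (log2 difference 0.43, SE 0.09, edgeR adjusted p 0.00122), none fell, and 42 did not pass the test, against 31.7% of all genes called (14.2% higher). The median was -0.27, against 0.00 over all genes. Libraries of neighbouring stages did not overlap for 20 genes, 17 of them lower at E13.5, against 51.4% of all genes (26.4% lower). The count was 4 without XX E11.5 replicate 2. When only the XX E12.5 and E13.5 libraries were fitted it was 17, 2 higher and 15 lower. On the TPM scale limma did not call the rise of Bub3 (0.18, adjusted p 0.1319 at a pseudocount of 1).

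From E13.5 to E15.5 in XX, edgeR called 0 of the 44 genes, with 2 at an unadjusted p under 0.05, against 25.6% of all genes called, and the median was -0.05 against 0.00. No overlap was seen for 16 genes, 12 lower and 4 higher at E15.5, against 48.3% of all genes (23.9% lower and 24.4% higher). DESeq2 called 2 and limma on TPM 1. The count was 3 without XX E11.5 replicate 2, 2 without XY E12.5 replicate 1 and 1 without any of 12 others (XX E11.5 replicates 1 and 3, XX E12.5 replicates 1 to 3, XX E15.5 replicate 1, XY E11.5 replicates 1 and 2, XY E12.5 replicates 2 and 3, XY E13.5 replicate 3 and XY E15.5 replicate 1). The checkpoint kinase Bub1 was the furthest from 0, at 0.92 (edgeR adjusted p 0.0601), and was called without XX E11.5 replicate 2 (0.89, adjusted p 0.007758), without XY E12.5 replicate 1 (0.91, adjusted p 0.04997), and by DESeq2 (0.88, adjusted p 0.0328). When only the XX E13.5 and E15.5 libraries were fitted, 13 genes were called, 3 higher and 10 lower. Bub1 was among the 3, at 0.92 (edgeR adjusted p 0.0005592). Some markers of other cells changed in XX over this step. Meiosis markers summed to 55.2 to 66.0 TPM at E13.5 and 199.7 to 289.5 TPM at E15.5. Germ cell markers went from 14.9 to 26.6 TPM to between 42.1 and 57.1 TPM. Interstitial markers went from 149 to 183 TPM to between 197 and 292 TPM. Steroidogenic markers rose too, while erythroid and immune markers fell, each without overlap. The part of these cells in the step was not tested.

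The first step in XY, to E12.5, had 12 of the 44 genes rising, 1 (Cdc25b) falling and 31 not passing the test, against 51.9% of all genes called (27.1% higher), with a median of 0.45 against 0.03 over all genes. The XY libraries of these stages did not overlap for 4 genes, 3 higher and 1 lower, against 60.4% of all genes (32.4% higher). Kif23 rose (log2 difference 1.04, SE 0.29, edgeR adjusted p 0.00477), and Cdc25b fell (log2 difference -1.03, SE 0.34, edgeR adjusted p 0.0155). Most of these calls rested on few libraries. Leaving out XY E12.5 replicate 2 left 2 genes called, and leaving out replicate 3 left 3. The number was 4 without XY E11.5 replicate 1 or 2, and 7 without any 1 of XX E12.5 replicates 1 to 3, XX E13.5 replicate 2, XY E13.5 replicates 2 and 3 and XY E15.5 replicates 1 to 3. It was 8 without any 1 of XX E11.5 replicate 3, XX E15.5 replicate 2 and XY E13.5 replicate 1. The Kif23 call was lost without XY E12.5 replicate 2 and in the 3 limma fits (0.53 to 0.54, adjusted p 0.13 to 0.1841), and the Cdc25b call without XY E11.5 replicate 3 or XY E12.5 replicate 1. In all 44 genes XY E12.5 replicate 1 was the lowest of its group, and 8 interstitial cell markers summed to 451.9 to 801.8 TPM in XY E11.5 and to 21.7 to 26.0 TPM in XY E12.5, which was not tested as a part of this step.

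From E12.5 to E13.5 in XY, 24 genes fell, none rose and 20 did not pass the test, against 16.6% of all genes called (8.62% lower), with a median of -0.85 against -0.01. There was no overlap for 14 genes, all lower, against 42.2% of all genes (22.3% lower). Ccnb1, cyclin B1, fell most (log2 difference -1.53, SE 0.32, edgeR adjusted p 0.00259), then the kinetochore gene Spc25 (log2 difference -1.39, SE 0.28, edgeR adjusted p 0.00184), and Cdk1 fell less (log2 difference -0.71, SE 0.21, edgeR adjusted p 0.0223). This count too turned on single libraries: 3 genes were called without XY E12.5 replicate 3, 2 when its replicate 2 was left out, 2 without XY E13.5 replicate 3, 4 when its replicate 2 was left out and 37 without XX E11.5 replicate 2. The fall of Cdk1 was not called with any 1 left out of XY E12.5 replicates 2 and 3 and XY E13.5 replicates 2 and 3, at log2 differences from -0.63 to -0.54, in the 3 limma fits (-0.61 to -0.60, adjusted p 0.07339 to 0.1198) or with only the libraries compared (-0.70, adjusted p 0.1138).

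From E13.5 to E15.5 in XY, all 44 genes rose, against 21.3% of all genes called (1863 of the 16190 higher), with a median of 1.54 against 0.00 over all genes, and the E13.5 and E15.5 libraries did not overlap for any of the 44, against 49.6% of all genes. The largest rise was that of Cdc25b (log2 difference 2.40, SE 0.36, edgeR adjusted p 5.96e-05, 5.23-fold), followed by Kif18a (log2 difference 1.95, SE 0.32, edgeR adjusted p 0.000141). The smallest was that of Bub3 (log2 difference 0.58, SE 0.09, edgeR adjusted p 0.00011), after Pttg1 (log2 difference 0.70, SE 0.09, edgeR adjusted p 1.70e-05). Between them stood Top2a (log2 difference 1.87, SE 0.35, edgeR adjusted p 0.000626), Mki67 (log2 difference 1.83, SE 0.40, edgeR adjusted p 0.00223), Nek2 (log2 difference 1.70, SE 0.41, edgeR adjusted p 0.00516) and Cdk1 (log2 difference 1.39, SE 0.21, edgeR adjusted p 7.00e-05). Leaving out any 1 of the 24 libraries left 43 or 44 genes called. Some markers of other cells rose in XY over this step as well. Germ cell markers summed to 7.74 to 14.0 TPM at E13.5 and 59.4 to 110.3 TPM at E15.5. Erythroid markers went from 57.7 to 102 TPM to between 370.01 and 587 TPM, and interstitial markers from 15.54 to 18.5 TPM to between 46.5 and 65.05 TPM. Their part in the step was not tested.

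Across all 4 stages, the edgeR F test called a change in XX for 39 of the 44 genes, against 74.0% of all genes, and in XY for 44, against 70.3%. The 5 not called in XX were Cdc25b, Cdc25c, Kif18a, Kif20b and Top2a, and without XX E11.5 replicate 1 the XX count was 25. The F test of the sex-by-stage interaction, a test of change with stage in the XX minus XY difference, called all 44, against 70.1% of all genes. The difference between the XX step and the XY step, a test added after the values were seen, was made for each step. From E11.5 to E12.5, the XX step was lower than the XY step for 25 genes and higher for none, against 40.1% of all genes called, led by Nek2 (log2 difference -2.42, SE 0.60, edgeR adjusted p 0.00303), and 38 were called without XX E11.5 replicate 2. The Nek2 call was lost in the 3 limma fits, at -1.53 to -1.44 (adjusted p 0.05961 to 0.08886). From E12.5 to E13.5, the XX step was higher for 5 genes and lower for none, against 25.2%, among them Spc25 (log2 difference 1.63, SE 0.40, edgeR adjusted p 0.0052) and Pttg1 (log2 difference 1.14, SE 0.13, edgeR adjusted p 8.22e-06). The Spc25 call was lost in limma without a TPM filter (1.32, adjusted p 0.05637). This count was 8 without XX E11.5 replicate 2, 10 without XY E12.5 replicate 1 and 3 without any 1 of XX E12.5 replicates 1 to 3, XX E13.5 replicates 2 and 3, XY E11.5 replicate 2, XY E12.5 replicates 2 and 3, XY E13.5 replicates 2 and 3 and XY E15.5 replicate 1. From E13.5 to E15.5, the XX step was lower for 38 genes and higher for none, against 25.8%, with Cdc25b at a log2 difference of -2.48 (SE 0.50, edgeR adjusted p 0.001). The 6 not called at this last step were Bub1, Cenpf, Nuf2, Tpx2, Ect2 and Mki67, and for Bub1 the log2 difference was -0.56 (SE 0.48, edgeR adjusted p 0.427).

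**Figure D4:**
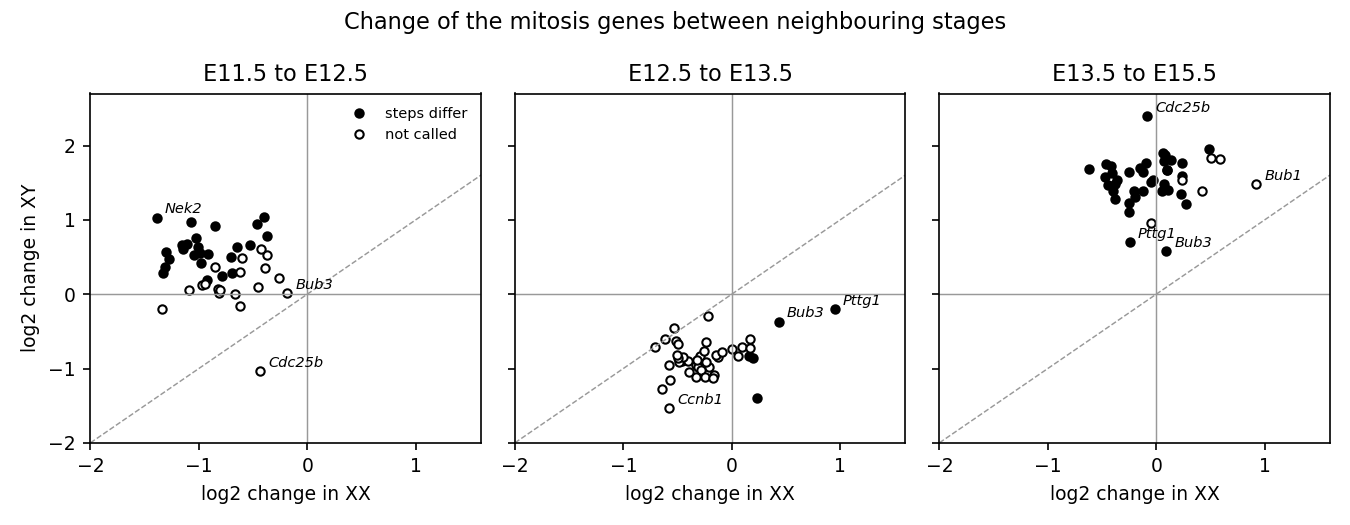
Log2 change of each mitosis gene between neighbouring stages (panels) in XX (x axis) and in XY (y axis), with filled points where edgeR called the 2 changes different and open points elsewhere, and a dashed line of equal change. At E13.5 to E15.5 all 44 points lie above the dashed line, at XX changes of -0.62 to 0.92 and XY changes of 0.58 to 2.40.

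The order of levels within a library can be read on the TPM scale, which is corrected for length. In XY E15.5 the highest were Cdk1 at 358 ± 13.0 TPM, Pttg1 at 284 ± 5.35 TPM, Bub3 at 243 ± 9.12 TPM, Ube2c at 236 ± 7.21 TPM and Cenpa at 229 ± 1.52 TPM (mean ± SD, n = 3). Bub3 and Ube2c did not differ beyond their spread. In XX E15.5 the highest were Bub3 at 225 ± 10.9 TPM and Pttg1 at 168 ± 20.5 TPM, then Cdk1 at 56.2 ± 4.23 TPM, Top2a at 47.4 ± 9.32 TPM and Cdca8 at 42.1 ± 3.14 TPM, of which Cdk1 and Top2a, and Top2a and Cdca8, lay within their spread. The lowest in XX E15.5 was Nek2, at 1.82 ± 0.0651 TPM, and in XY E15.5 Cdc25b, at 5.78 ± 0.141 TPM.

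Genes of the same machinery outside the list were counted from 8 lists, 148 genes in all, and their counts at E15.5 stand against 69.4% of all genes called (34.4% lower and 34.9% higher). At E15.5, all 23 other spindle, centrosome and cytokinesis genes were lower in XX (median -2.60), as were all 8 condensin genes (median -1.79), which compact chromosomes, and all 24 DNA replication genes (median -2.05). The largest differences in these 3 lists were those of the spindle genes Sapcd2 (log2 difference -4.29, SE 0.51, edgeR adjusted p 2.82e-07) and Gtse1 (log2 difference -4.27, SE 0.49, edgeR adjusted p 1.51e-07). Among condensin subunits they were those of Ncaph (log2 difference -2.72, SE 0.23, edgeR adjusted p 1.59e-09) and Ncapd2 (log2 difference -2.56, SE 0.20, edgeR adjusted p 2.56e-10). Among replication genes, Mcm10 (log2 difference -3.69, SE 0.26, edgeR adjusted p 7.28e-11) and the helicase loader Cdc6 (log2 difference -3.21, SE 0.26, edgeR adjusted p 5.22e-10) differed most. Of 10 genes of mitotic entry control, 9 were lower and none higher (median -1.81), the largest being the Cdk1 inhibitory kinase Pkmyt1 (log2 difference -4.14, SE 0.28, edgeR adjusted p 4.21e-11) and Mastl (log2 difference -2.77, SE 0.33, edgeR adjusted p 2.81e-07), which keeps mitotic phosphates in place. Of 30 other kinetochore genes, 27 were lower and 1, Zwint, was higher (log2 difference 0.27, SE 0.08, edgeR adjusted p 0.00402), with a median of -1.34, and Kntc1 (log2 difference -2.94, SE 0.33, edgeR adjusted p 1.26e-07) and Knl1 (log2 difference -2.93, SE 0.37, edgeR adjusted p 7.24e-07) were the lowest.

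The remaining lists held genes called in both directions. Of 14 cohesin genes, which hold sister chromatids together, and their regulators, 9 were lower and 3 higher (12 of 14 called, against 69.4% of all genes), with a median of -1.003. Espl1, the separase that cuts cohesin, had means of 1.52 ± 0.491 (XX) and 69.8 ± 3.48 CPM (XY, log2 difference -5.57, SE 0.48, edgeR adjusted p 2.85e-09), and Sgo2a, a protector of cohesin, was also lower (log2 difference -3.00, SE 0.44, edgeR adjusted p 5.15e-06). Higher in XX were Wapl, which releases cohesin (log2 difference 1.68, SE 0.16, edgeR adjusted p 5.18e-09), and the loader Nipbl (log2 difference 0.79, SE 0.12, edgeR adjusted p 9.03e-06). Of 17 subunits and regulators of the anaphase-promoting complex, 8 were higher and 4 lower in XX, with a median of 0.18, and these 12 of 17 are near the 69.4% of all genes called. The subunits Cdc26 (log2 difference 0.68, SE 0.09, edgeR adjusted p 7.26e-07) and Cdc16 (log2 difference 0.61, SE 0.07, edgeR adjusted p 2.96e-07) were the highest, while the inhibitor Fbxo5 (log2 difference -2.43, SE 0.24, edgeR adjusted p 1.27e-08) and the subunit Anapc15 (log2 difference -1.93, SE 0.12, edgeR adjusted p 7.77e-12) were the lowest.

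Among 22 transcriptional regulators of cell cycle genes, 14 were lower and 3 higher in XX at E15.5 (17 of 22 called, against 69.4% of all genes), with a median of -0.71. Foxm1, an activator of G2 and mitosis genes, had means of 2.698 ± 0.888 (XX) and 19.2 ± 2.05 CPM (XY, log2 difference -2.82, SE 0.33, edgeR adjusted p 1.38e-07). Mybl2 (B-MYB), its partner on these promoters, was at 2.21 ± 0.519 and 15.4 ± 3.10 CPM (log2 difference -2.81, SE 0.38, edgeR adjusted p 1.39e-06). The repressors E2f7 (log2 difference -5.88, SE 0.64, edgeR adjusted p 7.75e-08) and E2f8 (log2 difference -3.02, SE 0.40, edgeR adjusted p 1.04e-06) were lower in XX. Lin37 (log2 difference 0.68, SE 0.13, edgeR adjusted p 6.93e-05) and E2f4 (log2 difference 0.51, SE 0.15, edgeR adjusted p 0.00475), subunits of the repressive DREAM complex, were higher. Other genes of that complex went both ways, and they are named after their values were seen. Rbl1 (log2 difference -1.39, SE 0.22, edgeR adjusted p 7.95e-06), Rbbp4 (log2 difference -0.93, SE 0.10, edgeR adjusted p 2.03e-08) and Lin9 (log2 difference -0.58, SE 0.16, edgeR adjusted p 0.00373) were lower in XX. Tfdp2 was higher (log2 difference 0.48, SE 0.07, edgeR adjusted p 4.17e-06). Tfdp1 was called lower (log2 difference -0.27, SE 0.11, edgeR adjusted p 0.0387), a call lost under 4 alternatives and without any 1 of 12 libraries, and Lin52, Rbl2 and E2f5 did not pass the test.

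The replication list can be set beside the mitosis genes at the middle stages. At E12.5, 16 of its 24 genes were lower in XX and 1 higher, with a median of -0.46, against 62.1% of all genes called (30.5% higher and 31.5% lower). At E13.5, 9 were lower and 4 higher, with a median of -0.07, against 66.1% of all genes called (33.3% lower), where the 44 mitosis genes had medians of -1.74 and -1.12. Whether the lists differ was not tested. From E13.5 to E15.5 in XY, all 24 replication genes rose, against 21.3% of all genes called in either direction, with a median of 1.02, as did all 8 condensin genes (median 1.24), 21 of the 23 other spindle genes (median 1.57) and 26 of the 30 other kinetochore genes (median 1.10), against 3 of the 17 genes of the anaphase-promoting complex (median 0.04).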

How the data were processed

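RNA was measured in 24 libraries of 8 groups, assigned by their titles, from polyadenylated RNA amplified with a low-input kit, per the labels' protocols. One library, XX E13.5 replicate 1, carries E12.5 in 1 of its label fields and was kept at the stage of its title. The deposited estimated counts per gene and the deposited TPM values were both made by the authors. The build mm10 is named in the submitters' processing notes, and the aligner, counting program, annotation and use of strand are not given in the sources used here, so reads shared by overlapping genes or near-identical copies may be divided in a way that cannot be known. No molecular identifiers are described.

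Of the count values, 17.5% were not whole, and all were rounded. Genes were kept by filterByExpr and scaled by TMM, and edgeR 4.0.16 (R 4.3.3) fitted its robust quasi-likelihood test with 1 mean per group over all 24 libraries (16 residual degrees of freedom, common biological coefficient of variation 17.4%). Adjusted p are Benjamini-Hochberg over the 16190 genes tested, called under 0.05. CPM values use TMM-scaled library sizes, and errors are the SD of 3 libraries. With total counts from 11275251 to 37256881, the lowest count of a mitosis gene was 43. The replicate numbers were not taken as pairing the libraries. No replicates agreed within sampling noise.

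The 44 genes, the pathway and marker lists and the tests were chosen with earlier results of these data known. Values in every library are given for the genes with the largest and the smallest E15.5 difference in each role, and for Cdk1, chosen after its values were seen. Of each pathway list, up to 2 called genes per direction with the largest E15.5 difference are named, with Foxm1 and Mybl2. Of 150 pathway genes listed, 148 were matched, and 2 names were not analysed here. Alternatives were DESeq2 size factors in edgeR, no filter beyond 1 count, at least 10 counts in every library, a replicate block, DESeq2 1.42.0, limma 3.58.1 (limma-trend) on log2(TPM + 1) and log2(TPM + 0.1) for genes with at least 1 TPM in 3 libraries and on all genes, fits restricted to the compared groups, and omission of each library in turn.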

Additional observations from a re-analysis of the deposited data

Results flagged for a closer look

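The XX minus XY difference of the mitosis genes changed with stage. The edgeR interaction test called 44 of 44 genes, against 70.1% of all genes. When the XX step was set against the XY step, 25 of 44 were called for E11.5 to E12.5, against 40.1% of all genes. For the next step 5 of 44 were called, against 25.2%, and for the last 38 of 44, against 25.8%. All had the lower step in XX at the first and last and the higher at the middle one.

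For the 19 genes whose values in every library are given, the adjusted p of the edgeR interaction test was smallest for Pttg1 (1.97e-07), Cenpa (2.55e-06), Bub1b and Cdk1 (3.70e-05 each) and Plk1 (4.09e-05). It was 9.26e-05 for Cdca8, 9.86e-05 for Kif23, 0.000113 for Aurkb, 0.000127 for Bub3, 0.000197 for Nek2, 0.00021 for Ccna2, 0.000617 for Ube2c and 0.000801 for Cdc25b. It was larger for Kif11 (0.00155), Top2a (0.00741), Mki67 (0.0155), Kif20b (0.0172), Kif18a (0.0184) and Nuf2 (0.0209). No explanation of these differences was tested.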

How the results depend on the processing

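The counts of called genes kept within 1.5 times of the main count under the 9 alternatives that use all libraries or only those compared for XX minus XY from E12.5 on, for the XY step to E15.5, for the F tests and for the last step difference. The exceptions follow. At E11.5 the count was 7 with no filter and 0 with only the libraries compared (edgeR, 7 at an unadjusted p under 0.05, against 11 called by the fit of all libraries). For the XX step to E12.5 it was 8 with limma at either pseudocount, 7 without the TPM filter and 2 with only the libraries compared. For the XX step to E13.5 it was 1 without the TPM filter and 17 with only the libraries compared. For the XX step to E15.5 it was 1 with DESeq2 size factors, with at least 10 counts and with limma at either pseudocount, 2 with DESeq2 and 13 with only the libraries compared. For the XY step to E12.5 it was 8 with DESeq2 size factors, 7 with no filter or at least 10 counts, 3 with each limma fit and 6 with only the libraries compared. For the XY step to E13.5 it was 10 with no filter, 7 with limma at either pseudocount and 3 without the TPM filter. The step difference from E11.5 to E12.5 was called for 10 genes in each limma fit and 16 with only the libraries compared, and that from E12.5 to E13.5 for 3 with no filter or limma at either pseudocount, 2 without the TPM filter and 9 with only the libraries compared. The cause was not tested.

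Leaving out 1 library gave from 2 to 21 genes at E11.5, 44 at E12.5, 28 to 41 at E13.5 and 42 to 43 at E15.5. It gave 8 to 40, 2 to 4 and 0 to 3 genes for the XX steps, 2 to 15, 2 to 37 and 43 to 44 for the XY steps, 25 to 44 for any change in XX, 44 in XY, 38 to 44 for the interaction, and 17 to 38, 3 to 10 and 26 to 43 for the step differences. For Bub3 at E15.5 it gave log2 differences from -0.189 (without XX E15.5 replicate 1) to 0.044, on the other side of 0 (without XX E15.5 replicate 2).

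With a replicate block, 42 genes were called at E15.5 and 9 at E11.5, and no count moved by over 1.5 times. Over 84 pairs of libraries with the same number, the correlation of deviations was -0.11 to 0.298, with 6 over 0.1. Of 24 libraries, 12 correlated best with a library of their own number. The numbers were not taken as pairing, although these values cannot exclude it. Counting error weighs most at the lowest counts, down to 43 for Ttk in XX E15.5 replicate 1, and its share of the error was not tested.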
